A study of Mus musculus with 2 samples.

Results

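Gm26917 and Gm42418 are 2 long non-coding RNAs (lncRNAs) annotated side by side on mouse chromosome 17, at a fragment of a ribosomal RNA gene. They were chosen by their Ensembl identifiers, ENSMUSG00000097971 and ENSMUSG00000098178, with their measured values already known, and are 2 of the 614 known lncRNAs listed in the data. Both were found in the table under these identifiers, and both had reads in both libraries. Their levels come from total RNA of the livers of wildtype C57BL/6 mice at postnatal week 27, 1 library from a high fat diet (60% fat) and 1 from a normal diet, with a feeding time of 23 weeks. The labels call the source hepatocyte, while the extraction text describes whole liver, frozen and extracted with Trizol. The 6 hepatocyte markers are protein-coding genes, which a list of lncRNAs cannot hold. Of the 20 markers of other liver cells, most of them protein-coding too, 1 was measured. The cell type could therefore not be checked. That 1 marker, Mir155hg, had 2 reads on the normal diet and 8 on the high fat diet. The labels do not say how many animals went into a library, nor whether ribosomal RNA was removed.

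As background, ribosomal RNA is made in the nucleolus by RNA polymerase I as a long precursor. The precursor holds the RNA of the small ribosomal subunit, 18S, and the RNAs of the large subunit, separated and flanked by spacers that are cut away as the mature RNAs are released. Ribosomal RNA is the bulk of the RNA in a liver cell, and library methods often select against it. The genes lie in long repeated arrays that are mostly missing from genome assemblies, so annotated fragments outside the arrays can attract reads of the array genes. No separate function of Gm26917 or Gm42418 is assumed here.

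GENCODE M21 (build GRCm38) classes both genes as lincRNA, on the plus strand. Gm26917 lies at chr17:39843013-39846341 and has 2 transcripts. The long one is a single exon of 3329 bases, and the short one is spliced from 2 exons with 869 bases in all and lies inside the long one. Gm42418 lies at chr17:39846958-39848788 and is a single exon of 1831 bases. Between the end of Gm26917 and the start of Gm42418 are 616 bases. The annotated ribosomal RNA gene, CT010467.1, spans chr17:39846353-39848827 on the minus strand. Its edge beside Gm26917 is parted from the last base of Gm26917 by 11 bases. Gm26917 shares 0 exon bases with CT010467.1. By contrast, 1822 of the 1831 bases of Gm42418 (99.5%) lie in exons of CT010467.1. Of these, 1244 fall in its ribosomal RNA transcript of 1849 bases, of which they cover 67.3%, and the last 587 bases of Gm42418 lie beyond that transcript. Another lincRNA, AY036118, lies wholly inside Gm42418 on the minus strand over 923 bases and was not analysed here. Neither of the 2 lncRNAs shares a base with an exon of a protein-coding gene. RefSeq places Rn18s-rs5, a pseudogene of 18S ribosomal RNA that has Gm42418 among its synonyms, at the ribosomal RNA transcript. The name "ribosomal RNA related" therefore holds for Gm42418 by overlap, and for Gm26917 by position only.

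**Figure D1:**
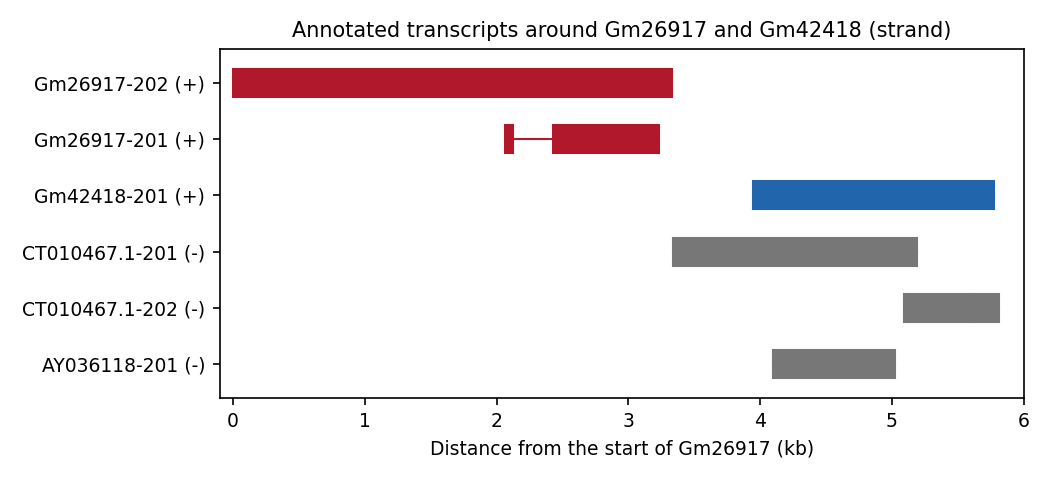
Annotated transcripts at the locus, drawn to scale against the distance in kb from the start of Gm26917, with the strand in brackets; blocks are exons. Gm26917 (red) ends 11 bases before the ribosomal RNA transcript of CT010467.1 (grey), and Gm42418 (blue) begins inside it and ends 587 bases beyond it.

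The letters at the edges of these genes are shown to mark where each lncRNA lies against the ribosomal RNA gene. For Gm26917 this is position only, since no base is shared. All 5 stretches are given on the plus strand of GRCm38, 5′ to 3′, from the GENCODE M21 transcript sequences. The first is the 3′ end of Gm26917 (chr17:39846222-39846341), with CG dinucleotides in capitals.
Gm26917 3′ end: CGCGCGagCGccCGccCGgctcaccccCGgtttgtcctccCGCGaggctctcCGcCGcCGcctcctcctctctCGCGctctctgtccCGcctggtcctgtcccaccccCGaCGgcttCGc
The next is the plus strand of the ribosomal RNA transcript from its edge beside Gm26917 (chr17:39846353-39846412), with the first 20 bases in capitals.
rRNA gene, first bases: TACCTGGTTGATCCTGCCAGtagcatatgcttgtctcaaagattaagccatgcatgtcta
In the following pair, capitals mark the bases of Gm42418 that lie in the ribosomal RNA transcript, at its 5′ end (chr17:39846958-39847017) and where it leaves that transcript (chr17:39848162-39848261).
Gm42418 5′ end: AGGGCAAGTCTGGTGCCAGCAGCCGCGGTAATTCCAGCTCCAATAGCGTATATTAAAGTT
Gm42418 leaving the rRNA transcript: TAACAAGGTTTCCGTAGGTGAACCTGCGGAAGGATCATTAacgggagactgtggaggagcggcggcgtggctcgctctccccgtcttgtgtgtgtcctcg
The last is the 3′ end of Gm42418 (chr17:39848689-39848788), again with CG dinucleotides in capitals.
Gm42418 3′ end: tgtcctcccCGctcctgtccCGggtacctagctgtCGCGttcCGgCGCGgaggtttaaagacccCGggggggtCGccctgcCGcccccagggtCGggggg

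On the plus strand, the ribosomal RNA transcript begins and ends with letters that, as background, open and close mature mammalian 18S ribosomal RNA. The annotation places CT010467.1 on the minus strand, so the 2 lncRNAs are annotated on the strand that reads as 18S RNA. By these letters and the annotated positions, Gm26917 ends just before the 18S stretch, where the leading spacer of a ribosomal RNA precursor lies. Gm42418 holds the later part of the 18S stretch and runs into the spacer after it. This is a description of position and letters, and whether the counted reads came from ribosomal RNA was not tested.

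Both lncRNAs stood at the edge of the base compositions of the 606 known lncRNAs whose identifiers matched GENCODE M21. Gm26917 had a GC content of 69.1%, against a median of 47.3%, and 1 of the 606 had a higher one. Its A content of 8.26% was the lowest of all 606, whose median was 27.0%. Gm42418 had a GC content of 60.2%, exceeded by 11 lncRNAs. CpG dinucleotides, which are depleted in most of the mouse genome, were near the number that base content alone would give. The observed over expected ratio was 0.94 for Gm26917 and 1.05 for Gm42418, against a median of 0.30, with 3 and 1 lncRNAs above them. Within Gm42418 the composition changed at the edge of the ribosomal RNA transcript. The 1244 bases inside it had 55.1% GC and 22.9% A, and the 587 bases beyond it had 71.0% GC and 6.64% A, close to the values of Gm26917.

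**Figure D2:**
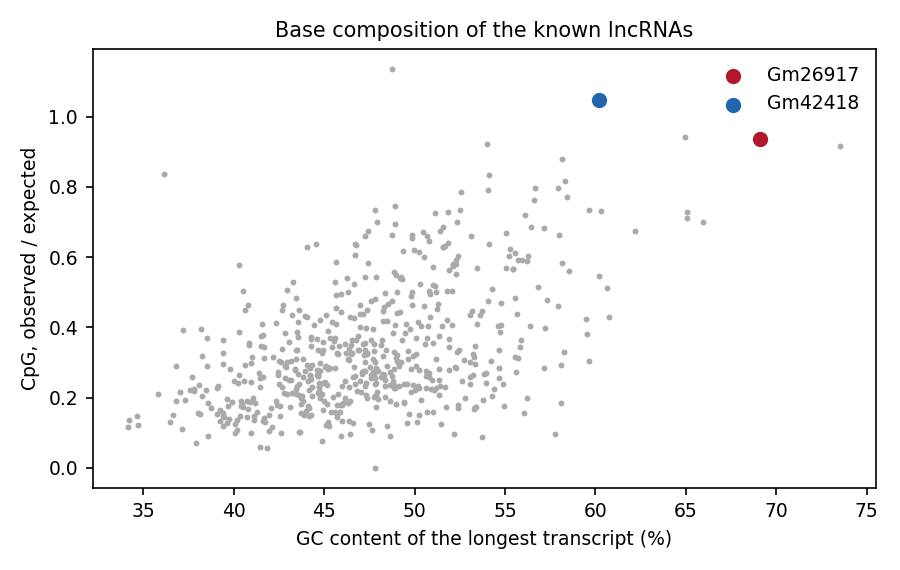
Each point is 1 of the 606 known lncRNAs with a GENCODE M21 transcript, by the GC content (%) of its longest transcript and its ratio of observed to expected CpG. Gm26917 (69.1%, 0.94) and Gm42418 (60.2%, 1.05) lie at the upper right, away from most others.

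Despite the similar composition, the pair shared no long stretch. The longest run of identical letters between them was 13 bases on either strand. In a BLAST search of 141767 annotated transcripts, the long transcript of Gm26917 matched no transcript of another gene. Gm42418 matched CT010467.1 and AY036118, which it overlaps, and 68 bases of a retained-intron transcript of Slc22a19, an organic anion transporter family gene, at 83.8% identity. None of these 3 genes is among the listed lncRNAs, so the search found no near-identical stretch between the pair and any other listed lncRNA with a matched identifier. Copies of the ribosomal RNA gene outside the annotated transcripts were not searched.

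Gm26917 was among the most abundant known lncRNAs in both libraries. It had 7062 reads on the normal diet and 3918 on the high fat diet, and ranked 7th of 614 in each. Here a read number is recovered from the deposited CPM values, and CPM is reads per 1000000 reads of the known lncRNAs in that library, not of all RNA. In these units Gm26917 stood at 29158 CPM on the normal diet and 20244 CPM on the high fat diet. It therefore held 2.92% of the known lncRNA reads (95% Clopper-Pearson interval 2.82 to 3.01) on the normal diet and 2.02% (1.94 to 2.12) on the high fat diet. The high fat diet value was 1.44-fold lower (1.36 to 1.52), a log2 ratio of -0.53 (-0.61 to -0.45). Intervals cover counting error only. Since each diet is represented by 1 library, the diets cannot be tested and no replicate error can be given, and a lower level per cell cannot be told apart from fewer cells that hold the RNA.

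Gm42418 was lower in the high fat diet library too, at a level well under that of Gm26917. It had 976 reads, or 4030 CPM, on the normal diet and 566 reads, or 2924 CPM, on the high fat diet. Its ranks were 41 and 58 of 614. The share of known lncRNA reads was 0.403% (0.368 to 0.440) on the normal diet and 0.292% (0.259 to 0.329) on the high fat diet. The high fat diet value was 1.38-fold lower (1.19 to 1.60), a log2 ratio of -0.46 (-0.68 to -0.25). Both intervals lay below 0, as did those of 59 of the 364 known lncRNAs that reached 20 reads in one or both libraries (16.2%), and of 22 of the 118 that reached 200 reads in each (18.6%).

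Neither lncRNA reached 2-fold. Of the 364, 58 (15.9%) differed at least 2-fold in either direction, 30 of them lower (8.24%), and of the 118 deeply read ones 7 (5.93%). The authors' deposited table lists Gm26917 at a fold change of 0.694 with an adjusted p of 2.11e-39, and Gm42418 at 0.726 with an adjusted p of 1.2e-04. That table gives both the direction down and marks neither as significant. It marks 42 of 614 lncRNAs (6.84%), each with a fold change of at least 2.25 in either direction, and leaves unmarked 60 others with an adjusted p of 0.05 or less. With 1 library per diet, the authors' p-values cannot hold the spread between animals of a diet.

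**Figure D3:**
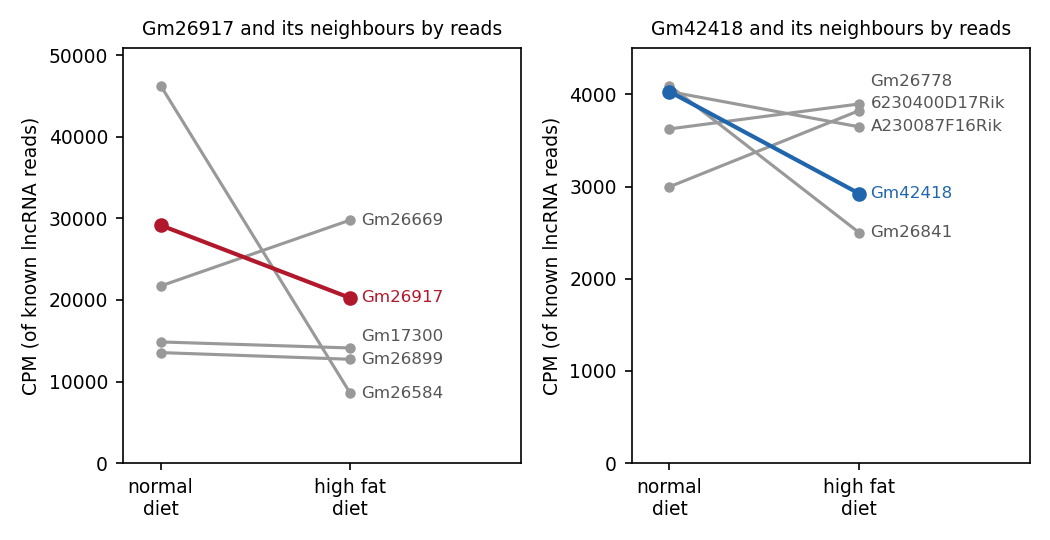
CPM (of known lncRNA reads) in the normal diet and the high fat diet library for Gm26917 (left, red) and Gm42418 (right, blue), each with the lncRNAs next above and below it by summed reads (grey); each point is 1 library. Gm26917 goes from 29158 to 20244 CPM and Gm42418 from 4030 to 2924 CPM, while the grey lncRNAs go in both directions.

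The pair kept nearly the same proportion in both libraries. There were 7.24 reads of Gm26917 for each read of Gm42418 (95% interval 6.58 to 7.97) on the normal diet and 6.92 (6.11 to 7.87) on the high fat diet. The log2 ratio of Gm26917 minus that of Gm42418 was -0.06 (-0.29 to 0.17), a value that no scaling of the libraries can move. A difference between the 2 responses of up to about the bounds of this interval was not detectable at this depth. Summed, the pair held 3.32% (3.22 to 3.42) of the known lncRNA reads on the normal diet and 2.32% (2.22 to 2.41) on the high fat diet, a log2 ratio of -0.52 (-0.59 to -0.44).

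Per length, Gm26917 remained the more abundant of the pair. On the scale of CPM per kb of exon it stood at 8759 on the normal diet and 6081 on the high fat diet, and Gm42418 at 2201 and 1597. The level of Gm26917 was thus 3.98-fold (3.62 to 4.38) and 3.81-fold (3.36 to 4.33) that of Gm42418. Among the 606 lncRNAs with an exon length, 9 on the normal diet and 15 on the high fat diet had more CPM per kb than Gm26917, and 38 and 49 had more than Gm42418. The median of the 606 was 81.7 and 86.6 CPM per kb. The counting rules bear on this comparison, since 9 of the 1831 bases of Gm42418 lie in no exon of another annotated gene, while Gm26917 overlaps none. Reads that fall on 2 genes can be set aside or given to either gene, depending on the strand setting and annotation, and neither is stated in the sources used here. Because of this, reads of Gm42418, CT010467.1 and AY036118 cannot be told apart.

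The lncRNAs next to each of the pair in abundance did not share one direction. Around Gm26917 by summed reads, Gm26584 had a log2 ratio of -2.43 (-2.54 to -2.33), Gm26669 one of 0.46 (0.38 to 0.53), Gm17300 one of -0.07 (-0.18 to 0.03) and Gm26899 one of -0.09 (-0.20 to 0.02). Around Gm42418, A230087F16Rik stood at -0.14 (-0.35 to 0.06), Gm26778 at 0.10 (-0.10 to 0.31), Gm26841 at -0.71 (-0.94 to -0.49) and 6230400D17Rik at 0.35 (0.14 to 0.56). LncRNAs of like depth were thus found on both sides of 0. Unlike the pair, each of these neighbours shares bases with protein-coding exons, strand not considered. Above 0, the overlap was 1672 of 1808 exon bases for Gm26669, 3805 of 3805 for Gm26778 and 237 of 2472 for 6230400D17Rik. Below 0, it ran from 19 of 1527 for Gm17300 to 2719 of 3328 for Gm26899. Whether reads of coding genes were counted there was not tested. The 116 others that reached 200 reads in each library had a median log2 ratio of 0.01, with quartiles of -0.18 and 0.33. Of these, 8 had a lower ratio than Gm26917 and 9 a lower one than Gm42418.

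**Figure D4:**
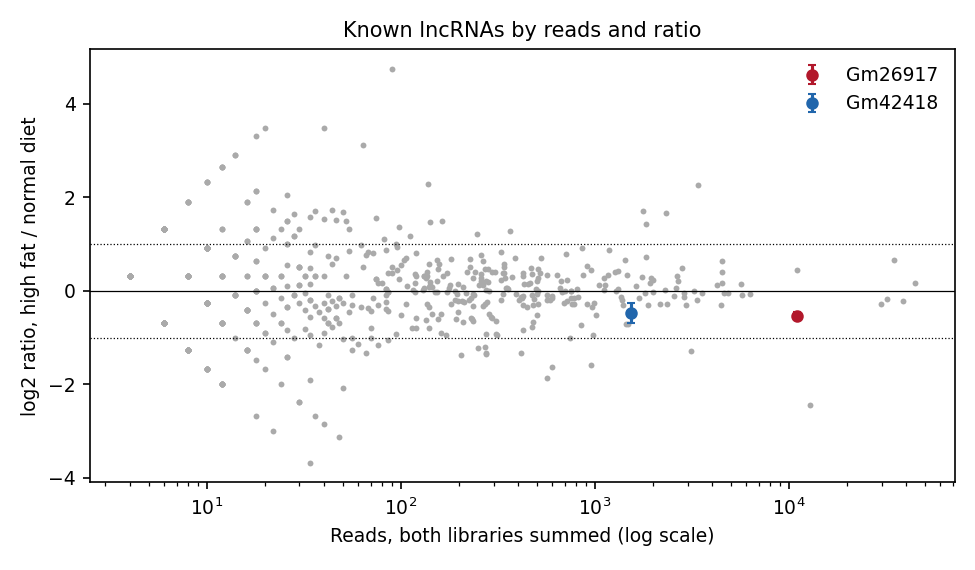
The log2 ratio of the high fat diet to the normal diet library against the reads of both libraries summed (log axis), for known lncRNAs read in both; bars on Gm26917 (red) and Gm42418 (blue) are 95% counting intervals and dotted lines mark 2-fold. Both lie below 0 and above the lower 2-fold line, at -0.53 and -0.46.

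Over these 2 libraries, likeness of pattern comes down to the distance between log2 ratios. Among those that reached 200 reads in each library, Gm26772 on chromosome 14 was closest to each of the pair. It had 648 reads on the normal diet and 360 on the high fat diet, a log2 ratio of -0.52 (-0.80 to -0.26). It lay 0.002 from Gm26917 and 0.06 from Gm42418. Next in likeness was, for each of the pair, its neighbour on chromosome 17, at a distance of 0.06. The interval of Gm26772 is wider than these distances, so this order is within counting error. The others among the 5 closest to Gm26917 were Gm26841 (-0.71), C330002G04Rik (-0.72, interval -0.95 to -0.49) and Gm19710 (-0.34, -0.61 to -0.07). For Gm42418 they were Gm19710, Gm38102 (-0.30, -0.53 to -0.08) and D230017M19Rik (-0.30, -0.49 to -0.10). These 6 lncRNAs lie on chromosomes 1, 2, 3, 5, 14 and 19, and their GC content of 45.9% to 54.7% is below that of the pair.

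The other lncRNAs listed on chromosome 17 stood on both sides of 0. The table lists 36 lncRNAs there, and Gm26917 and Gm42418 held 65.6% of their reads on the normal diet and 57.6% on the high fat diet. The nearest other, Gm20546, lies 3589 kb before Gm26917 and had 2 reads in each library, and the nearest on the other side, F630040K05Rik, lies 5886 kb after Gm42418 and had 6 reads on the normal diet and 2 on the high fat diet. Summed, the 34 others had 4206 reads on the normal diet and 3306 on the high fat diet, a log2 ratio of -0.02 (-0.12 to 0.07). That interval does not overlap those of Gm26917 and Gm42418. Of the 34, 22 reached 20 reads in one or both libraries, with a median log2 ratio of 0.17 and a range of -0.80 to 0.70, and 0 reached 2-fold, against 15.9% of all 364.

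The most read of these others was Gm26749, with 1418 reads on the normal diet and 928 on the high fat diet (-0.29, -0.46 to -0.12). Gm26873 (0.13, -0.12 to 0.38), Gm26885 (0.20, -0.12 to 0.52), 9530082P21Rik (0.47, 0.10 to 0.84) and Gm26904 (-0.07, -0.45 to 0.30) followed. Ratios below that of Gm42418 were found for 3 of the 22, namely A930024N18Rik (-0.80, -1.60 to -0.05), Gm17705 (-0.68, -2.23 to 0.73) and Gm26694 (-0.58, -1.17 to -0.01). They had 28 to 150 reads on the normal diet, so their intervals are wide.

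**Figure D5:**
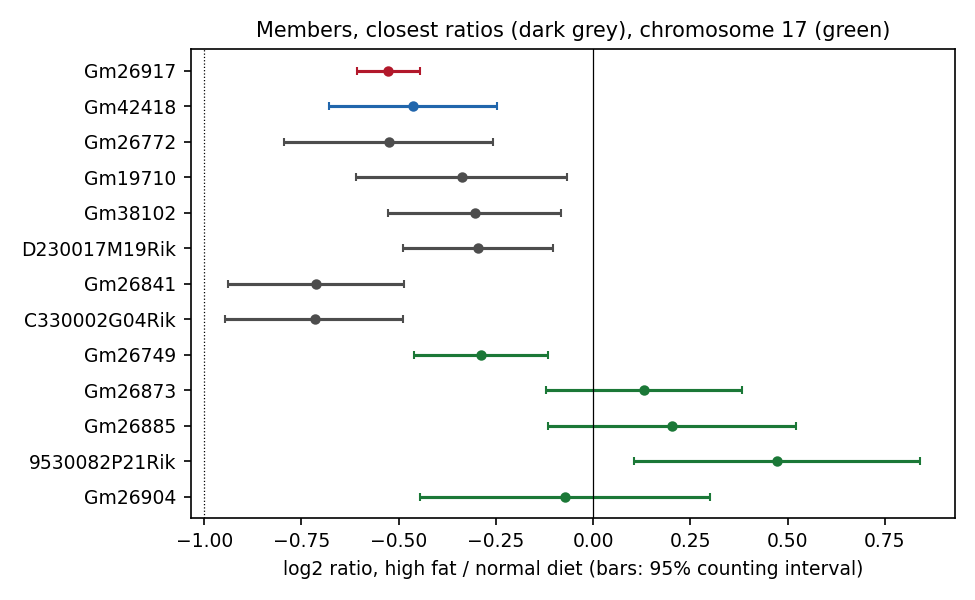
Log2 ratio of the high fat diet to the normal diet library with its 95% counting interval, for Gm26917 (red), Gm42418 (blue), the lncRNAs of closest ratio (dark grey) and the 5 other lncRNAs on chromosome 17 with most reads (green). The intervals of Gm26917 and Gm42418 overlap each other and lie left of 0, while those of chromosome 17 lie on both sides of 0.

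Since the pair is unusually rich in GC, the ratio was also read against GC content. Over 300 others that reached 20 reads in each library and have a known sequence, GC content and log2 ratio had Pearson's r of -0.06 and Spearman's rho of -0.09, as a description of lncRNAs that share the same libraries. The 25 others with 55% to 60% GC had a median log2 ratio of -0.02. Of 10 others with at least 60% GC, 6 passed this read limit, and the median of the 6 was 0.42. They were Gm28592, with 702 reads on the normal diet and 2712 on the high fat diet (2.27, 2.10 to 2.45), Gm13620 (-0.05), Gm13063 (0.32), 4930505N22Rik (0.52), Gm12536 (0.18) and Gm16295 (0.81). Those after Gm28592 had 30 to 122 reads in the normal diet library, and each of their intervals included 0. Of the 741 exon bases of Gm28592, 727 lie in protein-coding exons, strand not considered. The overlap was 238 of 511 bases for Gm13620, 91 of 669 for Gm13063, 73 of 1190 for 4930505N22Rik and 30 of 358 for Gm12536. Gm16295, like the pair, had 0. The other 4 of the 10 had at most 14 reads on the normal diet, and 2 of these 4 were lower in the high fat diet library by more than the pair. A830052D11Rik had 14 reads on the normal diet and was listed at the level of 1 read, taken as 0, on the high fat diet, and Gm12480 had 6 and 2 reads (-1.26, -6.98 to 2.38). Gm14321 had 2 and 6 reads, and Gm26859 had 2 in each library.

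By GENCODE M21 name, 0 of 33 listed genes for ribosomal RNA, RNA processing and small nucleolar RNA hosts were among the known lncRNAs. That list holds Rn18s-rs5, which has Gm42418 among its synonyms, so under this other name it holds Gm42418 itself. By name, no other RNA of the list was available for comparison with the pair. Of 22 repeat-rich or multi-copy non-coding RNAs often abundant in mouse data, 3 were measured and 0 reached 2-fold, against 15.9% of all 364, a share at which 0 of 3 carries no information. Gm26809 stood at -0.21 (-0.25 to -0.17), Gm26905 at -0.18 (-0.23 to -0.14) and Gm26870, with 42 reads on the normal diet and 26 on the high fat diet, at -0.37 (-1.49 to 0.70). Gm26809 and Gm26905 were thus lower in the high fat diet library by less than Gm26917, with intervals that do not overlap its interval. The interval of Gm26809 does overlap that of Gm42418 (-0.68 to -0.25). Of 8 nuclear-retained lncRNAs, 4 were measured. They are given because ribosomal RNA precursors are nuclear too, but whether the reads of the pair came from such precursors was not tested. Malat1, a nuclear speckle RNA, was higher in the high fat diet library (0.65, 0.44 to 0.87) without reaching 2-fold. Neat1, the scaffold of paraspeckles, was lower (-1.59, -1.92 to -1.27), and Xist, the X-inactivation RNA, stood at -1.04 (-2.54 to 0.29) with 36 reads against 14. Pvt1 had 2 reads on the normal diet and 18 on the high fat diet (3.49, 0.64 to 8.95), under the limit of 20 reads. Measured nuclear-retained lncRNAs thus stood on both sides of 0. Of the 3 that reached 20 reads, 2 were at least 2-fold lower, against 8.24% of all 364, and 3 lncRNAs are too few to read more from this.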

How the data were processed

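Both libraries were assigned to a diet from the diet label. The tools named in the submitters' processing notes are HISAT2, HTSeq and DESeq, and the build is mm8. No version, annotation or strand setting is given in these sources. The deposited values are CPM, scaled by the authors to a total of 1000000 per table and library. The authors also deposited a fold change (ratio of the high fat diet to the normal diet value), its log2, and p-values with adjusted p-values, printed only as theirs.

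Each CPM value was divided by the smallest value of its column, taken as 1 read, which gave whole numbers for 100% of the values (tolerance 1e-06). For known lncRNAs the scaling total was 242194 reads on the normal diet and 193538 on the high fat diet. The listed known lncRNAs held 241812 and 193260 of these reads. For the separate table of 272 numbered lncRNAs the scaling totals were 36634 and 25270. The latter was used only for 1 alternative scaling and for a check that no numbered lncRNA had the reads of Gm26917 or Gm42418 in either library (0 found). All recovered numbers above 1 were even, so intervals used units of 2 reads, and a value of 1 read was treated as 0. Log2 ratios have exact (Clopper-Pearson) 95% intervals of the split of these units, and the difference between the 2 lncRNAs the exact conditional interval of the odds ratio (scipy 1.17.1). These intervals cover counting error only. A call needs a 2-fold difference and 20 reads in one or both libraries. The calculation was tested on simulated data.

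GENCODE M21 (GRCm38) gave names, positions, exon lengths and transcript sequences for 606 of 614 identifiers. The files give no coordinates, and mm8 positions were not used. Transcripts were searched with BLAST 2.17.0 (word size 11, e-value limit 1e-10). Named lncRNAs are the 5 closest in log2 ratio to each of the pair with at least 200 reads in both libraries, the 2 next above and below by reads, those of chromosome 17 with most reads, and measured members of 5 gene lists. The 10 other lncRNAs of at least 60% GC and the 3 of chromosome 17 below Gm42418 were named after their values were seen. The members and lists were chosen with earlier results of these data known.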

Additional observations from a re-analysis of the deposited data

How the results depend on the processing

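The log2 ratios of Gm42418, Gm26917 and their sum stayed below 0 in each of the 8 alternatives of scaling and pseudocount run on each. As point values they also stayed under 2-fold. Gm42418 stayed within its counting interval in 7 of the 8 alternatives, and Gm26917 and the sum in 6. Scaling to the 374 known lncRNAs without coding exon overlap gave -0.43 for Gm26917 and -0.42 for the sum. Another alternative, chosen after seeing the data, set a median of other lncRNAs to 0. These were the 6 of at least 60% GC that also reached 20 reads in each library. All ratios shift by 0.42, which gave -0.88 (-1.10 to -0.67) for Gm42418, -0.95 (-1.03 to -0.87) for Gm26917 and -0.94 (-1.01 to -0.86) for the sum. Each of these intervals reaches past 2-fold. This alternative rests on 6 lncRNAs, and the read limit leaves out 4 others of at least 60% GC. Of the 741 exon bases of Gm28592, the most read of the 6, 727 lie in protein-coding exons. The difference between the 2 ratios was -0.06 with a pseudocount of 1 read and -0.07 with 5. The 58 called lncRNAs became 146 without a read minimum, 19 with a minimum of 100 reads, 124 at 1.5-fold and 15 at 4-fold, changes that follow from those settings. Neither of the pair was called in any of the 7 settings, the main one included. At their read numbers and folds, the read minimum, the 4-fold limit and the pseudocount could not have changed this. The scaling to the 6 lncRNAs of high GC was not among the 7. No paired analysis was possible because there is a single library for either diet, and for the same reason no library could be left out. Depth limits Gm42418 most, whose interval is wider than that of Gm26917.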
